A study of Sporobolus alterniflorus and Setaria viridis with 12 samples.

Results

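In mature leaves of 2 grasses, 109 of 15218 genes in the deposited table were at 100 FPKM or more in every one of the 12 libraries, which is 0.716% of the genes. FPKM counts the sequenced fragments of a gene relative to its length and to the library, so levels of different genes can be compared on it. The 109 genes were chosen by those 12 values alone. Their levels are therefore described here without a test, and a gene whose level drops under 100 FPKM in any library could not be a member.

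The study set leaves of Setaria viridis, a small laboratory grass, against those of the salt marsh cordgrass Spartina alterniflora, listed as Sporobolus alterniflorus in the organism field, in order to compare their vulnerability to salt. The 4 groups were S. viridis under NaCl, S. viridis control, S. alterniflora under NaCl and S. alterniflora control, with 3 libraries each, called A, B and C after the columns of the table. All plants were raised in soil and moved to hydroponic medium, the Spartina plants from field-collected seed, and the labels give neither a duration of treatment nor a strain. Per the treatment protocol, S. viridis received 250 mM NaCl and S. alterniflora 50 mM, yet the salt columns are named with 50 after the prefix of S. viridis and with 250 after that of S. alterniflora. Neither dose can be settled, and dose differs along with species in both sources. Species are named as the columns name them. If the species prefixes of the columns were swapped, each value given for one grass would belong to the other.

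Both grasses fix carbon by C4 photosynthesis, in which carbon dioxide is first bound in mesophyll cells and then released around RuBisCO in bundle sheath cells. In a mature grass leaf the most abundant nuclear transcripts usually include those of light-harvesting proteins, the small subunit of RuBisCO, C4 cycle enzymes and the translation machinery. Salt lowers water uptake and loads leaves with sodium, and photosynthetic transcripts often decline in salt-sensitive plants, while halophytes such as cordgrass exclude or secrete salt. The table pairs 0 of its Setaria IDs with a name, so no role can be given to any member, and the leaf label was not checked against marker genes.

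Total FPKM per library lay between 510410 and 542488 under salt and between 615049 and 631719 in controls of S. viridis, and between 710230 and 741399 under salt and between 666702 and 915944 in controls of S. alterniflora. Read totals cannot be read off FPKM values, and sequencing depth is unknown. Salt library C of S. viridis stood nearer to the controls than A and B did. Over the 109 members the median log2 ratio to the control mean was -0.23 in library C, against -0.74 in A and -0.62 in B. In S. alterniflora control library C a single gene, the member Sevir.2G310200, took 9.99% of total FPKM, and every other gene of that library is scaled against a total that includes it. Whether replicate libraries stem from different plants is not labelled, and p-values therefore cover only a between-library spread that may be technical.

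The members spanned a wide range of levels. The median of a member over the 12 libraries was 618 FPKM for the middle member, with 141 FPKM at the low end and 15809 FPKM at the high end. By this median, 42 members were at 1000 FPKM or more, 54 between 200 and 1000 FPKM, and 13 under 200 FPKM. In S. viridis 314 genes were at 100 FPKM or more in all 6 libraries, of which the members were 34.7%. In S. alterniflora 319 genes met the same level, of which the members were 34.2%. The members came from all 9 numbered starts of the ID, from Sevir.1 to Sevir.9, as 0.521% to 1.04% of the table's IDs with each start.

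**Figure D1:**
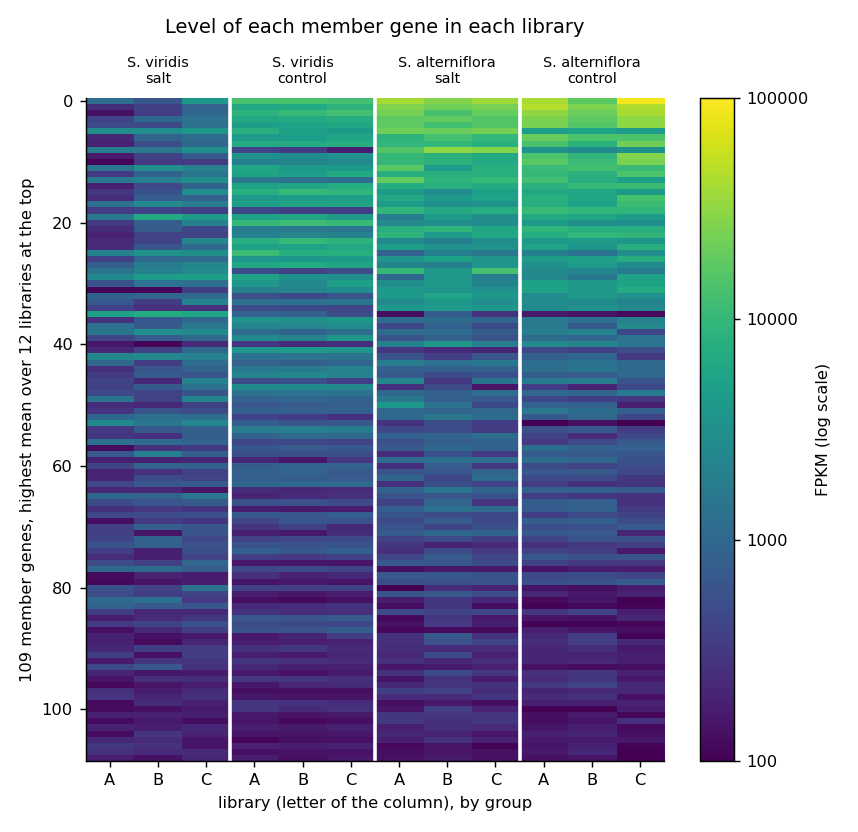
FPKM of the 109 member genes (rows, ordered by mean over the 12 libraries) in each library (columns, grouped by species and treatment), on a log colour scale starting at 100 FPKM. The rows at the top are bright in both S. alterniflora groups and in S. viridis controls and darker in S. viridis salt libraries, where 54 of the 109 members had their lowest value.

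The 2 most abundant members were Sevir.2G310200 and Sevir.9G175700. Sevir.2G310200 was at 1194, 633 and 3827 FPKM in S. viridis salt libraries A, B and C, against 13562, 13904 and 12839 FPKM in S. viridis controls. In S. alterniflora it was at 39939, 27696 and 37678 FPKM under salt and at 41646, 17714 and 91488 FPKM in controls. The S. viridis groups did not overlap, while the S. alterniflora salt libraries lay inside the range of their controls. It was the largest gene of the whole table in all 3 S. viridis controls, at 2.03% to 2.26% of total FPKM.

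The 2 members with the lowest medians, Sevir.1G066800 at 141 FPKM and Sevir.6G150700 at 144 FPKM, were far less variable. Even so, Sevir.6G150700 was at 258, 227 and 232 FPKM under salt against 132, 145 and 138 FPKM in controls of S. viridis, without overlap. In S. alterniflora its groups overlapped. Sevir.1G066800 was at 175, 137 and 210.2 FPKM under salt and 168, 133 and 161 FPKM in controls of S. viridis. Its S. alterniflora values were 137, 165 and 132 FPKM under salt and 138, 144 and 102 FPKM in controls. Its groups overlapped in both species, and its SD of log2(FPKM + 1) over the 12 libraries, 0.26, was the smallest of all members. Next smallest was Sevir.3G426300, at 0.27, whose highest value was 1.78 times its lowest. That gene was at 166, 296 and 283 FPKM under salt against 283, 263 and 242 FPKM in controls of S. viridis, and at 255, 208 and 249.8 FPKM under salt against 212, 221 and 171 FPKM in controls of S. alterniflora. It was the 1 member whose 12 values stayed within 2-fold. Another 24 members varied by 2-fold to under 4-fold, 44 by 4-fold to under 10-fold and 40 by 10-fold or more, with a median ratio of highest to lowest of 7.54. Presence above the threshold throughout thus did not mean a steady level.

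Just inside the threshold were Sevir.1G235200, with a lowest value of 100 FPKM in S. alterniflora salt library A, and Sevir.7G255300, with 101 FPKM in S. alterniflora control library C. Neither was low throughout. Sevir.1G235200 reached 1338 FPKM in S. viridis salt library C, and Sevir.7G255300 reached 1253 FPKM in S. viridis salt library B. Just outside were Sevir.9G200400, at 99.7 FPKM in S. viridis control library B, and Sevir.7G205300, at 98.3 FPKM in S. viridis salt library C. In all, 39 members had a lowest value under 150 FPKM. The lowest value lay in a salt library of S. viridis for 54 members, in a control of S. viridis for 15, in a salt library of S. alterniflora for 15 and in a control of S. alterniflora for 25. S. viridis salt library A held it for 40 members, and without that library 134 genes would have met the rule.

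The members held a large part of all FPKM. In S. viridis their share was 12.9%, 17.5% and 21.1% in salt libraries A, B and C, against 35.0%, 35.6% and 36.2% in controls. In S. alterniflora it was 51.6%, 48.2% and 49.5% under salt, against 54.8%, 48.2% and 57.3% in controls. The share averaged 17.2% ± 4.11 under salt and 35.6% ± 0.602 in controls of S. viridis (SD, n = 3 each), and the groups did not overlap. It averaged 49.8% ± 1.71 under salt and 53.4% ± 4.7 in controls of S. alterniflora (SD, n = 3 each), where the ranges overlapped. The share of S. viridis salt libraries was thus below all others, and the share of S. alterniflora above that of S. viridis in every library. These are sums over genes chosen by level and carry no test.

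Set beside the members, the other 15109 genes of the table summed to 434537 ± 8761 FPKM under salt and 400709 ± 4037 FPKM in controls of S. viridis, and to 361840 ± 5005 FPKM under salt and 363124 ± 24590 FPKM in controls of S. alterniflora (SD, n = 3 each). The S. viridis difference in total FPKM therefore ran opposite to that of the genes outside the set. Of the 10 most abundant genes of a library, 4, 4 and 6 were members in S. viridis salt libraries A, B and C, against 9, 10 and 10 in its controls. In S. alterniflora 8 of the 10 were members in each salt library, against 8, 7 and 8 in controls. The bulk leaf samples cannot separate fewer cells of a type from less RNA per cell.

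**Figure D2:**
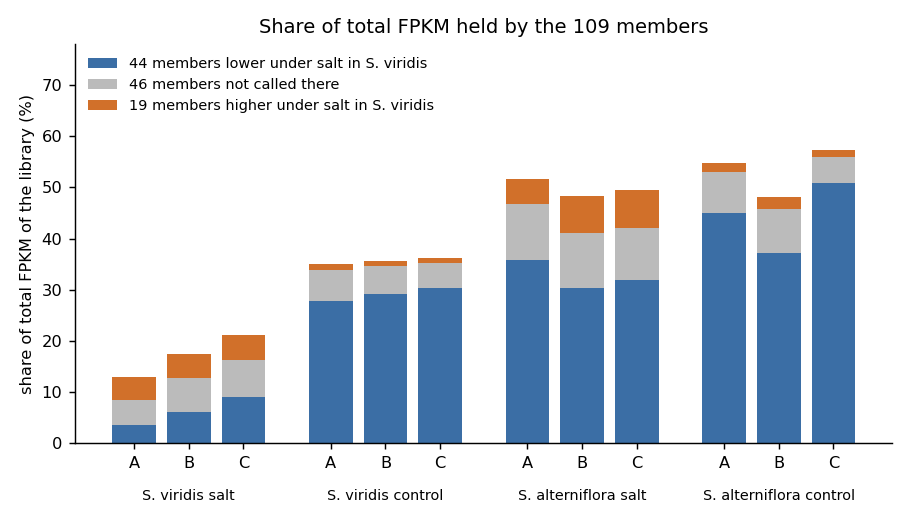
Share of total FPKM (percent) held by the 109 members in each library, stacked by the result of the salt comparison in S. viridis. S. viridis salt libraries sit at 12.9% to 21.1%, S. viridis controls at 35.0% to 36.2% and S. alterniflora libraries at 48.2% to 57.3%, and the part from the 44 members lower under salt in S. viridis is 3.54% to 9.06% in the first group and 27.9% to 30.4% in the second.

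In S. viridis leaves more members fell than rose under salt. Of the 109 members, 44 fell and 19 rose (limma on log2(FPKM + 1), fitted on all 11266 tested genes, Benjamini-Hochberg adjusted p under 0.05). Over all tested genes 52.5% were called, 27.1% lower and 25.4% higher, and the members were called at 57.8%, 40.4% lower and 17.4% higher. Among the 928 genes with a mean of 100 FPKM or more in S. viridis, 69.9% were called, 35.2% lower and 34.7% higher, members included. All 109 members passed the filter of the fit. The rule kept out genes that fell under 100 FPKM and also genes that rose from under 100 FPKM, so these shares describe the members and are not a test of the set. The median salt difference was -0.46 over the members and -0.12 over all tested genes on the log2 scale. With library totals made equal those medians were -0.22 and 0.10, and with upper quartile scaling -0.65 and -0.27, so the members lay 0.32 to 0.38 below the median of all genes under either scaling, against 0.35 as deposited.

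The size of the change was often large. Among called members, 43 fell and 14 rose with a log2(FPKM + 1) difference of 1 or more in size, a 2-fold change. Regardless of sign, the median difference was 1.14 over the members and 0.83 over all tested genes. It was 1.71 over the 819 other genes with a mean of 100 FPKM or more in S. viridis. Genes that fell under 100 FPKM, or rose from under it, are among those 819 and could not be members. The rule itself therefore sets part of this gap. The salt and control libraries did not overlap for 77 members, or 70.6%, against 65.4% of all tested genes. A called difference depended on the spread of the salt libraries as well. The median within-group SD of the members on the log2 scale was 0.55 among salt libraries and 0.15 among controls, against 0.54 and 0.15 for other genes with a group mean of 100 FPKM or more.

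The largest falls were those of Sevir.6G164700 and Sevir.9G175700. Sevir.6G164700 was at 135, 349 and 992 FPKM in S. viridis salt libraries A, B and C, against 8742, 10809 and 12791 FPKM in controls. Its highest salt value was under its lowest control value, and it fell by 4.88 ± 0.69 (log2 difference ± SE, limma adjusted p = 0.00155). Sevir.9G175700 was at 244, 393 and 877 FPKM under salt, against 6496, 6884 and 8852 FPKM in controls. It fell by 4.06 ± 0.51 (limma adjusted p = 0.000934), again with no overlap. The abundant Sevir.2G310200 described above fell by 3.24 ± 0.67 (limma adjusted p = 0.0065). In all 3 genes salt library C held the highest of the salt values. The same held widely. In 34 of the 44 members that fell, library C was the salt library nearest to the control mean, in 10 it was B and in 0 it was A. Without library C, 48 members fell and 21 rose, and 61 of the 63 calls remained. Without control library A, B or C, 34, 32 and 32 members fell and 11 rose each time, and 45, 43 and 43 of the 63 calls remained. Without salt library A or B, 57 and 58 remained.

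The largest rises were those of Sevir.7G275600 and Sevir.5G101000. Sevir.7G275600 was at 5186, 7297 and 5856 FPKM in S. viridis salt libraries, against 888, 821 and 482 FPKM in controls. Every salt value was above every control, a rise of 3.10 ± 0.39 (log2 difference ± SE, limma adjusted p = 0.000928), and this gene was the most abundant member in all 3 salt libraries. Sevir.5G101000 was at 1844, 1529 and 3085 FPKM under salt, against 399, 319.8 and 179.6 FPKM in controls. It rose by 2.85 ± 0.43 (limma adjusted p = 0.0019). Among the 19 members that rose, salt library C was nearest to the controls in 5, B in 8 and A in 6, so library C did not stand apart in the rises as it did in the falls.

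The falls were concentrated among the most abundant members. Of the 49 members with a mean of 1000 FPKM or more over the 12 libraries, 33 fell under salt in S. viridis and 5 rose, with a median difference of -1.91. Of the 22 members at 500 to 1000 FPKM, 7 fell and 5 rose, with a median of -0.34. Of the 20 members at 250 to 500 FPKM, 3 fell and 5 rose, with a median of 0.09, and of the 18 members under 250 FPKM, 1 fell and 4 rose, with a median of 0.22. A member of low mean cannot fall far and stay above 100 FPKM, so the rule itself sets part of this gradient. Outside the set, 21 genes had a mean of 1000 FPKM or more over the 12 libraries, and 13 of them fell and 5 rose in S. viridis. Their median difference was -3.31. Each of these 21 genes was under 100 FPKM in at least 1 library, so the rule selected them for a wide range. They show that falls at high levels also occurred outside the set, and their size cannot be compared with that of the members. The classes were chosen after the values were seen.

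**Figure D3:**
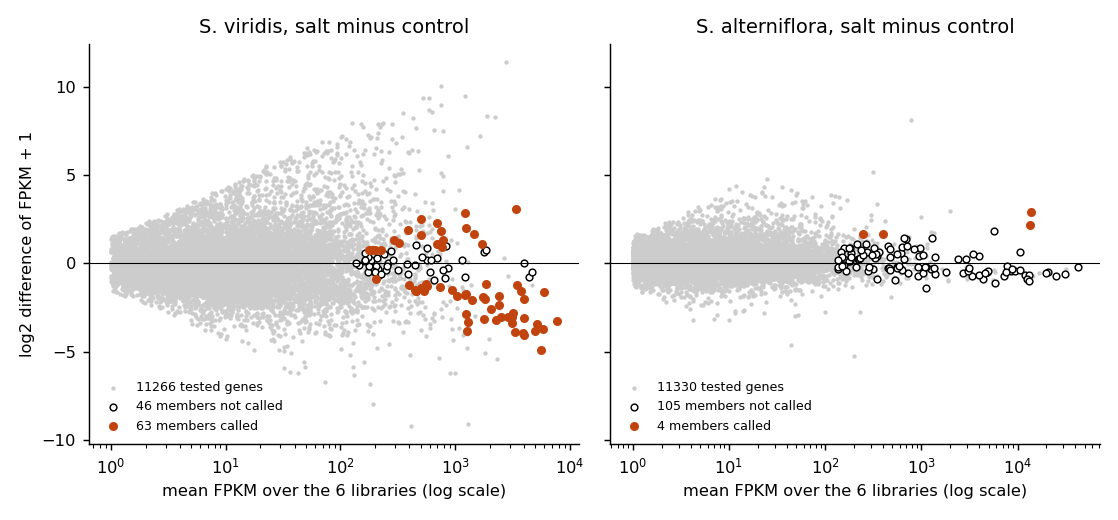
Salt minus control difference of log2(FPKM + 1) against mean FPKM over the 6 libraries of each species (log axis), for all tested genes (grey), members called at adjusted p under 0.05 (red) and members not called (open). In S. viridis 44 members lie below 0 and 19 above among the 63 called, mostly below at high FPKM, and in S. alterniflora the 4 called members all lie above 0.

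Summed by direction, the 44 members that fell held 18075, 32535 and 49175 FPKM in S. viridis salt libraries A, B and C, against 172837, 179704 and 191746 FPKM in controls. The 19 that rose held 22423, 25018 and 25791 FPKM under salt, against 7229, 6474 and 6464 FPKM in controls. The 46 that were not called held 25422, 34029 and 39531 FPKM under salt, against 37249, 32819 and 30637 FPKM in controls, and these groups overlapped. The first 2 sums follow from how the genes were sorted and are given for their size only.

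In S. alterniflora leaves 4 of the 109 members rose under salt and 0 fell (limma adjusted p under 0.05, over 11330 tested genes). Over all tested genes 1.62% were called, 1.43% higher and 0.194% lower, and the members were called at 3.67%, against 2.95% of the 475 other genes with a mean of 100 FPKM or more in S. alterniflora. At an unadjusted p under 0.05 there were 24 members, 9 of them lower, against 14.7% of all tested genes. The median salt difference was -0.18 over the members and 0.06 over all tested genes, and the members ranged from -1.40 to 2.91 on the log2 scale. Salt and control libraries did not overlap for 37 members, or 33.9%, against 21.7% of all tested genes.

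The largest rise was that of Sevir.5G101000, which had also risen in S. viridis. It was at 15241, 31524 and 27432 FPKM in S. alterniflora salt libraries A, B and C, against 3273, 2802 and 3365 FPKM in controls. All 3 salt values exceeded all 3 controls, and it rose by 2.91 ± 0.32 (log2 difference ± SE, limma adjusted p = 0.0103). In salt library B it was the most abundant gene of the table, at 4.44% of total FPKM. Sevir.5G140200 was at 21732, 20224 and 23575 FPKM under salt, against 4724, 5552 and 4465 FPKM in controls. It rose by 2.16 ± 0.23 (limma adjusted p = 0.0102), with no overlap.

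The other 2 called members are named because the count is small, and were chosen after their values were seen. Sevir.3G122700 was at 635, 696 and 501 FPKM under salt, against 212, 157 and 201 FPKM in controls, and rose by 1.68 ± 0.25 (limma adjusted p = 0.0276). Sevir.5G434400 was at 272, 518 and 347 FPKM under salt, against 102, 137 and 102 FPKM in controls, and rose by 1.69 ± 0.31 (limma adjusted p = 0.0447). These last 2 passed less firmly, and upper quartile scaling gave adjusted p = 0.0533 and 0.0613 in limma. Without control library A or without salt library C, 0 members were called by limma, with 12 and 16 members at an unadjusted p under 0.05. The adjusted p was then 0.0717 and 0.0621 for Sevir.5G101000 and 0.0717 and 0.0666 for Sevir.5G140200 in limma. The number called was 2 without salt library A, without control library B or without control library C.

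Both salt comparisons could be set side by side, since they share no library. Of the 4 members that rose in S. alterniflora, 3 also rose in S. viridis, namely Sevir.5G101000, Sevir.3G122700 and Sevir.5G434400. No such joint count was made over all tested genes, so it describes the members only. Sevir.3G122700 was at 488, 359.9 and 412 FPKM in S. viridis salt libraries, against 174, 155 and 175 FPKM in controls, a rise of 1.31 ± 0.24 (limma adjusted p = 0.0043). Sevir.5G434400 was at 2707, 1490.0 and 2515 FPKM there, against 790.4, 636 and 656 FPKM in controls, a rise of 1.65 ± 0.35 (limma adjusted p = 0.0076). The fourth, Sevir.5G140200, was at 2933, 2909 and 3853 FPKM under salt, against 7568, 5072 and 4256 FPKM in controls of S. viridis, a difference of -0.77 ± 0.41 that did not pass (limma adjusted p = 0.151).

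For the 19 members that rose in S. viridis, the median S. alterniflora difference was 0.80, and 16 were above 0. For the 44 that fell in S. viridis, it was -0.49, and 37 were below 0, although 0 of them were called in S. alterniflora. The median fall of those 44 in S. viridis was -2.07. For the 46 members not called in S. viridis the median S. alterniflora difference was 0.25, with 28 above 0. In neither salt comparison were 45 members called, and 15 members were called in none of the comparisons tested here, species differences included. Such totals were taken over the members alone. Among all tested genes, salt calls covered 52.5% for S. viridis and 1.62% for S. alterniflora, and a joint share was not computed. The totals therefore cannot be read as a trait of the members.

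**Figure D4:**
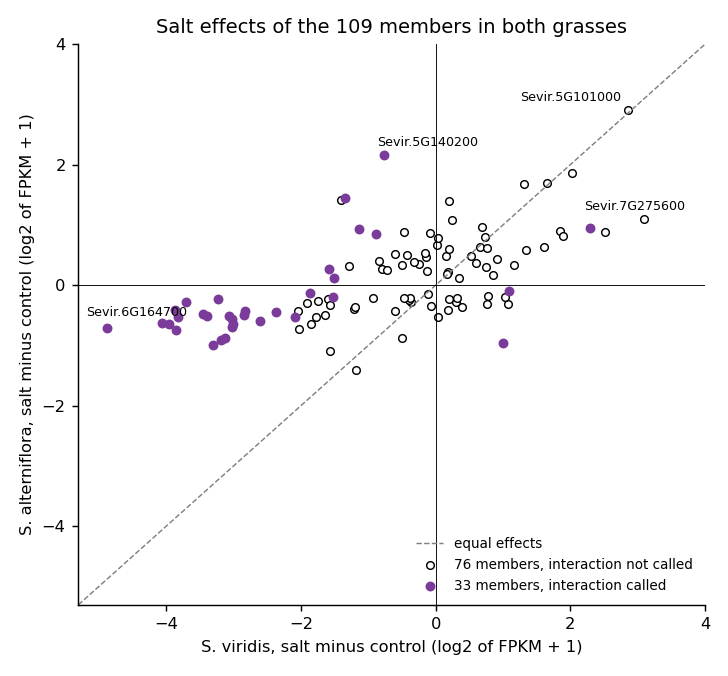
Salt minus control difference of log2(FPKM + 1) of the 109 members in S. viridis (horizontal) and S. alterniflora (vertical), with filled points for the 33 members whose difference between species passed and a dashed line of equal effects. Of the filled points, 30 lie above the line, mostly far to the left of 0 in S. viridis and near 0 in S. alterniflora, and Sevir.5G101000 lies on the line.

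An interaction term over the 12 libraries, the S. viridis salt effect minus the S. alterniflora one, tested for unequal responses. It differed for 33 of the 109 members, lower in S. viridis for 30 and higher for 3 (limma adjusted p under 0.05, over 12529 tested genes). Over all tested genes 24.2% were called, 13.4% lower and 10.7% higher, and the members were called at 30.3%, 27.5% lower and 2.75% higher. Of the 654 other genes with a mean of 100 FPKM or more in the 12 libraries, 47.4% were called, 27.5% lower and 19.9% higher, so the lower share of the members was that of other abundant genes. Of the 30, 29 had also been called lower under salt in S. viridis, and the other was Sevir.5G140200. Dose and species cannot be told apart here.

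Sevir.6G164700 had the largest negative interaction, -4.17 ± 0.85 (log2 ± SE, limma adjusted p = 0.00538). Its S. alterniflora values were 23538, 13409 and 19340.0 FPKM under salt, against 31898, 20481 and 41002 FPKM in controls, which did not pass there (-0.71 ± 0.35, limma adjusted p = 0.396). Next was Sevir.4G001300, with -3.46 ± 0.68 (limma adjusted p = 0.00421). It was at 183, 434 and 899.8 FPKM under salt against 5354, 5716 and 7279.8 FPKM in controls of S. viridis, and at 7152, 8126 and 6978 FPKM under salt against 8414, 9984 and 11232 FPKM in controls of S. alterniflora. Its S. viridis groups stood an order of magnitude apart, while its S. alterniflora groups did not overlap but lay close together. The interaction of Sevir.5G140200 was -2.93 ± 0.47 (limma adjusted p = 0.00146), the smallest adjusted p of any member.

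The 3 members with a higher effect in S. viridis were Sevir.3G015100, Sevir.7G208600 and Sevir.4G298300, the last named after its values were seen. Sevir.3G015100 was at 691, 1959 and 804 FPKM under salt against 519, 506 and 514 FPKM in controls of S. viridis. The S. alterniflora libraries had 239.8, 577 and 317 FPKM under salt against 740.3, 699 and 634 FPKM in controls. The groups separated upward in one species and downward in the other, neither difference passed alone, and the interaction was 1.97 ± 0.58 (limma adjusted p = 0.0291). Sevir.7G208600 was at 1012, 904 and 1531 FPKM under salt against 196, 232 and 257 FPKM in controls of S. viridis, and at 581, 643 and 568 FPKM under salt against 349.8, 308 and 269 FPKM in controls of S. alterniflora. Salt values were above controls in both, and the interaction was 1.34 ± 0.38 (limma adjusted p = 0.0252).

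Sevir.4G298300 was at 977, 1140.0 and 742 FPKM under salt against 435, 479 and 405 FPKM in controls of S. viridis, and at 132, 161 and 161 FPKM under salt against 142, 168 and 174 FPKM in controls of S. alterniflora. The groups were apart in S. viridis and overlapped in S. alterniflora, with an interaction of 1.19 ± 0.35 (limma adjusted p = 0.0294). Sevir.5G101000, in contrast, had an interaction of -0.06 ± 0.59 (limma adjusted p = 0.952), with an error too wide to show equal effects. Leaving out any 1 of the S. viridis controls brought the count of called members to 15, 15 and 17. It was 21 and 19 without S. alterniflora salt library A or C, and 17 without its control library A or B. Without S. viridis control library A the limma adjusted p was 0.0611 for Sevir.3G015100, 0.0731 for Sevir.7G208600 and 0.0688 for Sevir.4G298300, while Sevir.6G164700, Sevir.4G001300 and Sevir.5G140200 kept their calls whichever library was left out.

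**Figure D5:**
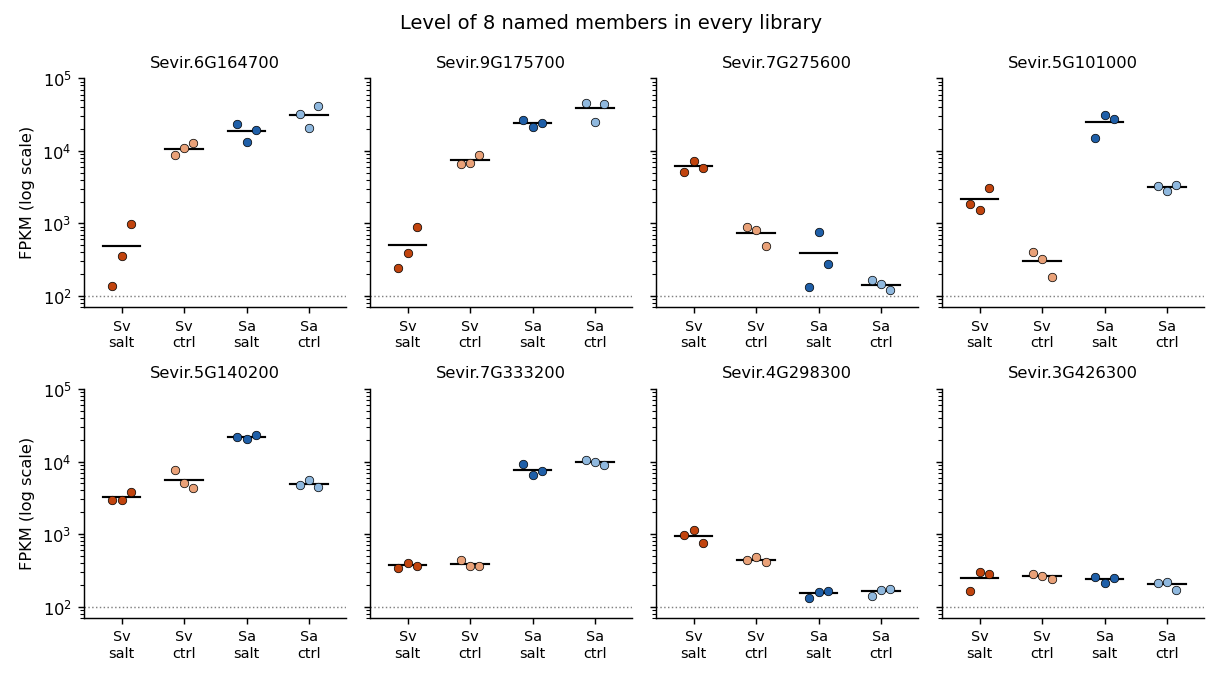
FPKM (log axis) of 8 named members in the 3 libraries of each group, with points for libraries, black bars for group means and a dotted line at 100 FPKM (Sv, S. viridis, Sa, S. alterniflora, ctrl, control). Sevir.6G164700 and Sevir.9G175700 are lower in S. viridis salt libraries than in all others, Sevir.5G101000 is higher under salt in both grasses, and Sevir.3G426300 stays between 166 and 296 FPKM.

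The control groups were compared to see how far the members differed between the grasses without salt. Of the 109 members, 31 were higher and 39 lower in S. viridis than in S. alterniflora (limma adjusted p under 0.05, over 12134 tested genes). Over all tested genes 72.3% were called, 39.5% higher and 32.8% lower, and the members were called at 64.2%, 28.4% higher and 35.8% lower. Of the 580 other genes with a mean of 100 FPKM or more in the controls, 81.7% were called, 54.7% higher and 27.1% lower. A member had to reach 100 FPKM in both grasses and other genes did not, which limits how far a member can differ. These shares therefore describe the members and are not a test of the set. The direction of the members' differences depended on the scaling. With library totals made equal 35 members were higher and 28 lower, with upper quartile scaling 23 and 50, and with median centring 22 and 52. The median over all tested genes was 0.16 as deposited, 0.46 with equal totals and -0.13 with upper quartile scaling, and the members' median lay 0.33, 0.30 and 0.38 below it. The sources used here do not give how S. alterniflora reads received Setaria IDs, and species, growth and that step cannot be told apart. Across the 109 members, mean control levels in both species had a Pearson's r of 0.789 and a Spearman's rho of 0.754 on the log2 scale. Over the 12529 genes averaging 1 FPKM or more across the libraries, r was 0.437 and rho 0.355. Genes are not independent and the members were chosen for high levels in both, so these values carry no test.

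Sevir.7G131700 was at 3765, 4524 and 3642 FPKM in S. viridis controls, against 441, 383 and 532 FPKM in S. alterniflora controls. It was higher by 3.14 ± 0.20 (log2 difference ± SE, limma adjusted p = 1.29e-05). Sevir.7G120300 was at 2671, 2734 and 2587 FPKM in S. viridis, against 361, 201 and 455 FPKM in S. alterniflora, a difference of 3.05 ± 0.31 (limma adjusted p = 0.000105). Both were among the members that fell in S. viridis under salt, to 215, 381 and 1008 FPKM and to 381, 704 and 1325 FPKM. In the opposite direction, Sevir.7G333200 was at 440.1, 357 and 359 FPKM in S. viridis controls, against 10433, 9748 and 9085 FPKM in S. alterniflora controls. Its difference of -4.66 ± 0.19 (limma adjusted p = 1.72e-06) was the largest of any member. Sevir.5G101000 was at 399, 319.8 and 179.6 FPKM against 3273, 2802 and 3365 FPKM, a difference of -3.46 ± 0.31 (limma adjusted p = 5.69e-05).

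The species were compared under salt in the same way. Of the 109 members, 13 were higher and 48 lower in S. viridis than in S. alterniflora (limma adjusted p under 0.05, over 12445 tested genes). Over all tested genes 61.8% were called, 31.9% higher and 29.9% lower, and the members were called at 56%, 11.9% higher and 44% lower. Of the 697 other genes with a mean of 100 FPKM or more in the salt libraries, 79.1% were called, 51.9% higher and 27.1% lower. Here too the rule asks for 100 FPKM in both grasses of members only, so these shares are not a test of the set. With library totals made equal 21 members were higher and 33 lower. The counts were 7 and 58 with upper quartile scaling, and 7 and 54 with median centring. The excess of lower members kept its direction under these scalings. Without S. alterniflora salt library A or C, 39 and 40 members were called. The doses of both salt groups differ, which is part of this comparison. The median difference was -0.84 over the members and 0.02 over all tested genes. Mean levels under salt had a Pearson's r of 0.422 and a Spearman's rho of 0.441 across the members, against 0.365 and 0.301 over the 12529 genes, and again carry no test.

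The 2 largest called differences each way under salt were those of genes already described. Sevir.7G275600 was higher in S. viridis, at 5186, 7297 and 5856 FPKM, against 133, 770.0 and 271 FPKM in S. alterniflora (4.31 ± 0.63, log2 difference ± SE, limma adjusted p = 0.000724). Sevir.4G298300 was higher by 2.63 ± 0.33 (limma adjusted p = 0.000334). Sevir.9G175700 was at 244, 393 and 877 FPKM in S. viridis salt libraries, against 26816, 21511 and 24365 FPKM in S. alterniflora salt libraries, a difference of -5.78 ± 0.54 (limma adjusted p = 8.13e-05). For Sevir.6G164700 it was -5.66 ± 0.72 (limma adjusted p = 0.000346). Sevir.7G333200, which salt did not detectably move in either species, kept a difference of -4.38 ± 0.37 (limma adjusted p = 5e-05).

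Across both comparisons of species, 9 members were higher in S. viridis with and without salt and 31 were lower in both. These counts, and that of the sign turns below, were made for the members only. Over all tested genes 72.3% were called among controls and 61.8% under salt, so such counts cannot be read as a trait of the members. The sign of a called difference turned for 4 members, named here because they are few. Sevir.5G247800, Sevir.7G299700 and Sevir.8G012400 were higher in S. viridis among controls and lower under salt, and Sevir.3G015100 was lower among controls and higher under salt. Sevir.7G299700 was at 319.9, 785 and 2092 FPKM under salt against 10078, 11311 and 10327 FPKM in controls of S. viridis. The S. alterniflora libraries had 2582, 2944 and 2909.9 FPKM under salt against 4287, 3036 and 2987 FPKM in controls. In S. viridis the gene thus stood above all S. alterniflora libraries without salt and, in each salt library, below them. Sevir.8G012400 was at 307, 264 and 775 FPKM under salt against 904, 1065 and 1082 FPKM in controls of S. viridis, where it fell by 1.35 ± 0.44 (limma adjusted p = 0.0364). In S. alterniflora it was at 839, 920.2 and 1146 FPKM under salt against 416, 235 and 452 FPKM in controls, a difference of 1.44 ± 0.32 that did not pass (limma adjusted p = 0.0843), and the interaction was -2.79 ± 0.57 (limma adjusted p = 0.00542). These 4 turns were near the threshold. With library totals made equal the limma adjusted p under salt was 0.0839 for Sevir.5G247800, 0.106 for Sevir.7G299700 and 0.164 for Sevir.8G012400, and that of Sevir.3G015100 among controls was 0.713.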

How the data were processed

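Per the labels' protocols, mature leaf RNA from a PureLink kit was sequenced on an Illumina platform with read pairs. FPKM values deposited by the authors cover 15218 gene IDs in 12 libraries, and the submitters' processing notes name RSEM and edgeR without role or version. Aligner, reference and filters were not given in the sources used here. Columns were assigned to groups by species and treatment. Genes sharing reads with near-identical copies are uncertain.

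The limma package (3.58.1, under R 4.3.3) was fitted to log2(FPKM + 1), with eBayes and trend, two-sided, Benjamini-Hochberg adjusted over all tested genes at a threshold of 0.05. Genes averaging under 1 FPKM in a fit's libraries were left out. Fits were tested on simulated data. Figures were drawn with matplotlib 3.10.9 under Python 3.11.15, and tables with pandas 2.3.3. Alternatives were another pseudocount, other filters, 3 scalings, no trend, 1 joint fit, a block on the column letter and each library left out. The members and comparisons were chosen with earlier results of these data known. Named are the 2 highest, lowest, least variable and threshold genes, and the 2 largest called differences each way per comparison. Planned gene lists needed names and were not used.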

Additional observations from a re-analysis of the deposited data

Results flagged for a closer look

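The salt effect differed between S. viridis and S. alterniflora for 33 members by the interaction test (limma adjusted p under 0.05). Taken as S. viridis minus S. alterniflora on the log2 scale, the effects differed by 1.97 for Sevir.3G015100, 1.34 for Sevir.7G208600, -4.17 for Sevir.6G164700 and -3.46 for Sevir.4G001300. The part of dose in these differences was not tested.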

How the results depend on the processing

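Of 97 recomputed counts, 76 stayed within 1.5 times the count as reported. The number of genes meeting the rule was 265 at 50 FPKM, 52 at 200 FPKM, 192 by group means and 187 with library totals made equal. Members called for salt in S. alterniflora numbered 2 with upper quartile scaling, median centring or a replicate block by column letter, and 0 to 3 with 1 library left out. With 1 library left out, members called numbered 43 to 69 for salt in S. viridis, 15 to 45 for the interaction, and 39 to 60 for the species comparison under salt. The cause of these shifts was not tested. A list of 43 called differences, not all of those given above, was followed, and each kept its sign in every alternative run. Of the values, 33 of 378 lost the call, as did 79 of 312 with 1 library left out. With 1 library left out 18 of the 43 differences lost it at least once, and 10 did in the other alternatives. Column letters are not the labels' replicate numbers, and same-letter deviations correlated at -0.101 to 0.0593. Libraries were not paired by letter in the main fits, and such values cannot settle whether they were paired in the experiment. With that replicate block, 54 members were called for salt in S. viridis, 32 for the interaction, 63 for species among controls and 51 for species under salt. Depth is unknown, so counting error could not be assessed.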
